A study of Homo sapiens with 16 samples.

Results

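Ribosomes are built in the nucleolus, and 35 genes for nucleolar and ribosome assembly proteins were followed in 2 human neuroblastoma lines treated with DAC, EPZ-6438 (EPZ from here on) or both. The genes were taken by name from a list, which was drawn up with earlier results of these data known, out of a table of 23459 genes. All 35 were found there and passed the filter on low counts, as did 15967 genes in all. In each line, IMR5-75 and Be(2)-C, treatment was 72 h of 1 µM DAC, 96 h of 1 µM EPZ or the 2 combined at those doses and times, and control cells had the solvent DMSO. Each of the 8 groups of line and treatment held 2 RNA sequencing libraries, 16 in all, named here by line, treatment and number. DAC, which the labels do not spell out, usually stands for decitabine, a nucleoside that depletes DNA methyltransferases, and EPZ-6438 blocks EZH2, the enzyme by which the Polycomb complex PRC2 methylates histones. Both lines are known for extra copies of MYCN, and each line stands for itself only. No label says that the libraries of a group came from separate cultures, so each p-value reflects the spread between libraries and nothing more, and that spread may be technical.

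A ribosome starts as a long precursor RNA that RNA polymerase I copies from the ribosomal DNA. Small nucleolar ribonucleoproteins (snoRNPs) modify and guide the folding of this RNA. Assembly factors, among them helicases and the nucleases that cut the RNA, load ribosomal proteins until the small and large subunits leave the nucleus. MYC and its relative MYCN, transcription factors that bind as dimers with MAX to the E-box CACGTG, are known to raise the transcription of many of these genes, and MYCN is the defining oncogene of high-risk neuroblastoma. That MYCN sets the level of the 35 genes in these cells was not tested.

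Library totals ran from 9539557 to 14032155 counts, and the 35 genes together took 0.625 to 1% of them. Levels are given as CPM, the share of a library's counts scaled to a common total with TMM factors, and changes as log2 changes from edgeR. The SE of a change was derived as its absolute value divided by the square root of edgeR's F statistic. It is less certain for changes near 0. A gene is called, and is said to have fallen or risen, where edgeR's quasi-likelihood test gave a Benjamini-Hochberg adjusted p under 0.05 over all 15967 genes. These are relative levels: less RNA of a gene per cell and fewer cells that hold it cannot be told apart in bulk RNA. The 8 noradrenergic markers of neuroblastoma summed to 1073 to 1840 CPM in every library, and 9 markers of blood, epithelial and endothelial cells to 3.70 to 15.0 CPM. In IMR5-75 the noradrenergic enzyme genes TH and DBH were low, with 0 to 2.60 CPM for TH and 1.18 to 15.3 CPM for DBH.

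RefSeq promoter windows of GRCh38.p14, 250 bases before to 50 bases after the start of each gene, were matched for 28 of the 35 genes. CACGTG, which reads the same on both strands, was in 6 of these 28 windows (21.4%), against 1064 of 10713 windows of tested genes (9.9%). Of these 6, 5 are shown because the motif lies next to the start, from 100 bases before it to 20 bases after it, with the motif in capitals. Its first base was 5 bases before the start in RRP9 and 10 bases before it in UTP20, and it was base 7 from the start in FBL, base 4 in WDR43 and base 14 in PES1.
RRP9, chr3:51941885-51942004, minus strand: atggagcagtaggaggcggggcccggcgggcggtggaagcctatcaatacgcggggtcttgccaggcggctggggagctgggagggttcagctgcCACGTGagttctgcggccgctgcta
UTP20, chr12:101280005-101280124, plus strand: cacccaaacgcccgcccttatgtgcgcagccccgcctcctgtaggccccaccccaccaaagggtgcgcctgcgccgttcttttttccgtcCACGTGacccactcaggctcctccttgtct
FBL, chr19:39846360-39846479, minus strand: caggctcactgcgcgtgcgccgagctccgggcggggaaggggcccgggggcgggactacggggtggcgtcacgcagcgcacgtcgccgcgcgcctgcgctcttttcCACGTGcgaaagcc
WDR43, chr2:28894567-28894686, plus strand: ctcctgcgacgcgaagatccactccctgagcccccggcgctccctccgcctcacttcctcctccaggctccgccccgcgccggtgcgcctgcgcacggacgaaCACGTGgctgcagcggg
PES1, chr22:30591891-30592010, minus strand: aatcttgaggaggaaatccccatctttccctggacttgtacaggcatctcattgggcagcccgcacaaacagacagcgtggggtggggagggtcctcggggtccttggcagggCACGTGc
The sixth window, that of MYBBP1A, held the motif from base 28 on. The other 22 windows held no CACGTG. The same stretch is shown for 3 of these genes, LYAR, NPM1 and NCL, which were picked because the results below describe their low log2 changes.
LYAR, chr4:4290135-4290254, minus strand: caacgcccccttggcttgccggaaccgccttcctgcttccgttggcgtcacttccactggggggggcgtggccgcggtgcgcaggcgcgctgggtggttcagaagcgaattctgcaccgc
NPM1, chr5:171387749-171387868, plus strand: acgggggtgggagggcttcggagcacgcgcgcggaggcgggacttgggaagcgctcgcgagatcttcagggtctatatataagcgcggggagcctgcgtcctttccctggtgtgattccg
NCL, chr2:231464465-231464584, minus strand: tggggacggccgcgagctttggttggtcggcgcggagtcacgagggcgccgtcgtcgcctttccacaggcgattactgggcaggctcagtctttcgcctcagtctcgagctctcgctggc
A match describes these letters and no bound factor. NOP58, NOLC1, RRP12, BOP1, RRS1, DDX18 and URB2 are named only.

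The first question was how the summed level of the 35 genes stood under each drug. In IMR5-75 it averaged 7036 ± 322 CPM after DAC, 8732 ± 75.7 CPM after EPZ and 5819 ± 153 CPM after both drugs, against 10170 ± 240 CPM in DMSO (SD, n = 2 each). Be(2)-C averaged 9004 ± 179 CPM after DAC, 9122 ± 723 CPM after EPZ and 8066 ± 662 CPM after both, against 10500 ± 141 CPM in DMSO (SD, n = 2 each). Every treated library of either line lay below both of its DMSO libraries. The combination left 57.2% of the DMSO level in IMR5-75 and 76.8% in Be(2)-C. The sum stood lowest under both drugs in both lines. NPM1 and NCL weigh most in the sum, so the genes are also described one by one.

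**Figure D1:**
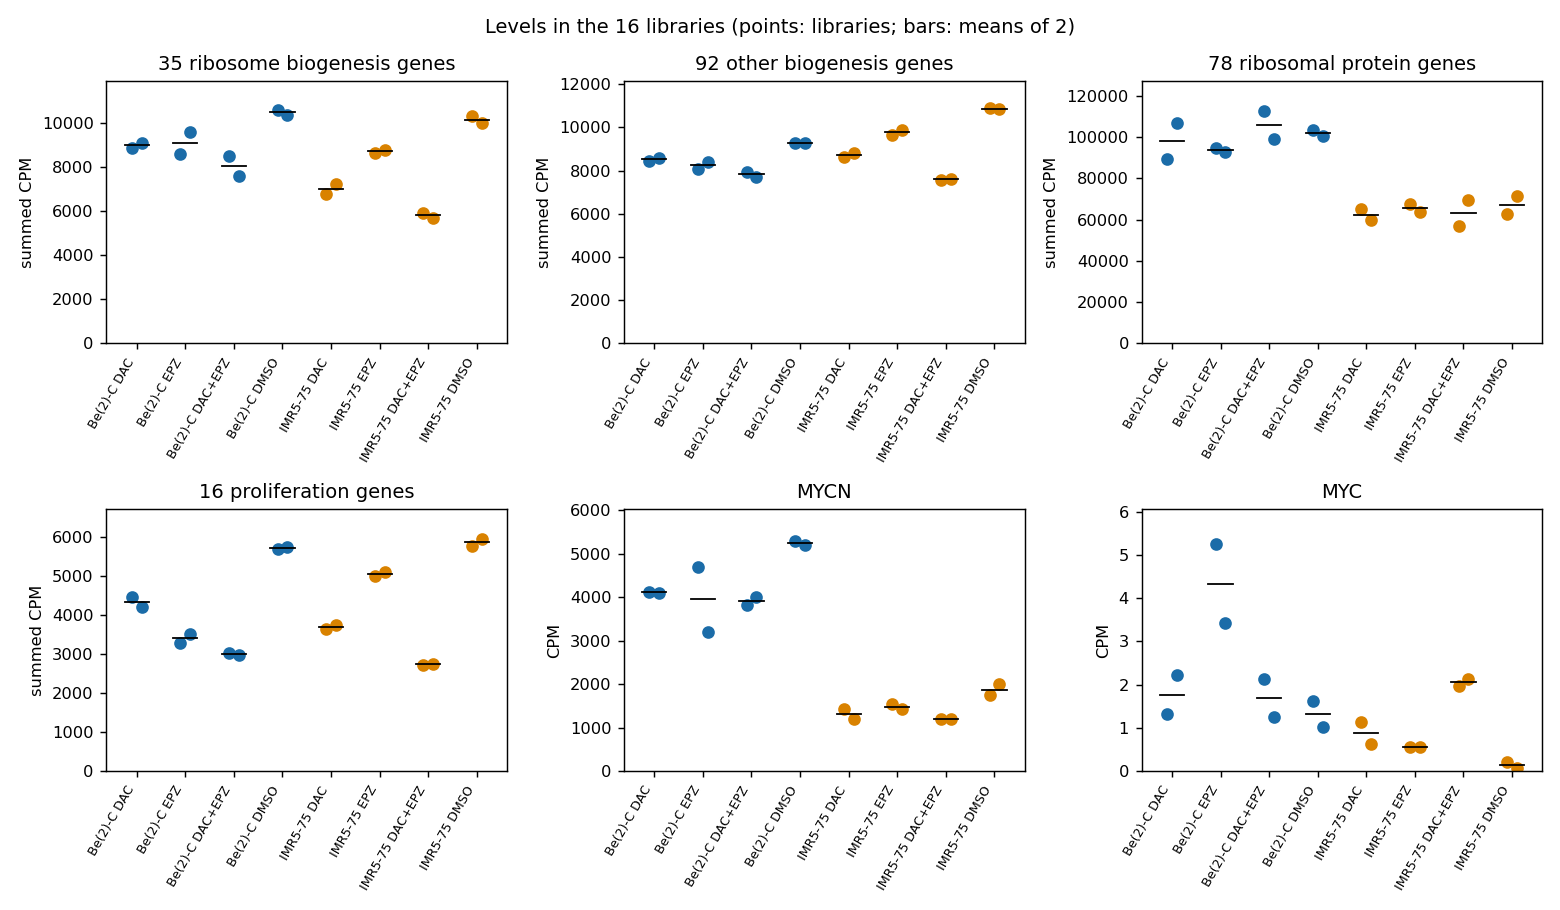
Levels in CPM (vertical axes, from 0) of each library (points) with the mean of 2 (bars) for each line and treatment (horizontal axes; blue Be(2)-C, orange IMR5-75). The 35 ribosome biogenesis genes summed to 5819 CPM on average after both drugs in IMR5-75, against 10170 CPM in DMSO, while the 78 ribosomal protein genes summed to 63240 CPM against 67140 CPM.

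Across the genes, the direction was nearly uniform and the calls were unequal. Under both drugs, 34 of 35 genes fell in IMR5-75 (median log2 change -0.67) and 21 fell in Be(2)-C (median -0.36), where the background was 20.4% and 10.4% of all tested genes called lower. DAC alone lowered 25 genes in IMR5-75 (median -0.43; background 13.8%) and 4 in Be(2)-C (median -0.21; background 2.97%). EPZ alone lowered 1 gene in IMR5-75 (median -0.27; background 0.344%) and 2 in Be(2)-C (median -0.14; background 4.85%). No gene of the 35 rose in any of these 6 comparisons, where 25.7% (both), 19.9% (DAC) and 1.63% (EPZ) of all tested genes rose in IMR5-75 and 13.2%, 3.73% and 5.35% in Be(2)-C. Among the 11860 tested genes whose mean level was at or above that of PPAN, the lowest of the 35, the shares called lower were 26.7% (both), 17.9% (DAC) and 0.455% (EPZ) in IMR5-75 and 13.7%, 3.9% and 6.51% in Be(2)-C. Over all tested genes the 6 median changes lay between 0.01 and 0.05. Both DAC+EPZ libraries were below both DMSO libraries for 35 of 35 genes in IMR5-75 (33% of all tested genes) and for 31 in Be(2)-C (29.1%).

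The counts in Be(2)-C depended on single libraries. The 21 calls under both drugs became 8 without DMSO 1, DMSO 2 or DAC+EPZ 2 and 13 without DAC+EPZ 1, and 11 when libraries were scaled by their totals alone. DKC1, RRP9, URB2, NCL, DDX21 and LYAR (6 of the 21) kept the call whichever of the 16 libraries was left out, and all 21 stayed below 0. In IMR5-75, 25 of the 34 calls under both drugs and 15 of the 25 under DAC held in all 16 such fits, and scaling by totals alone left 15 DAC calls.

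**Figure D2:**
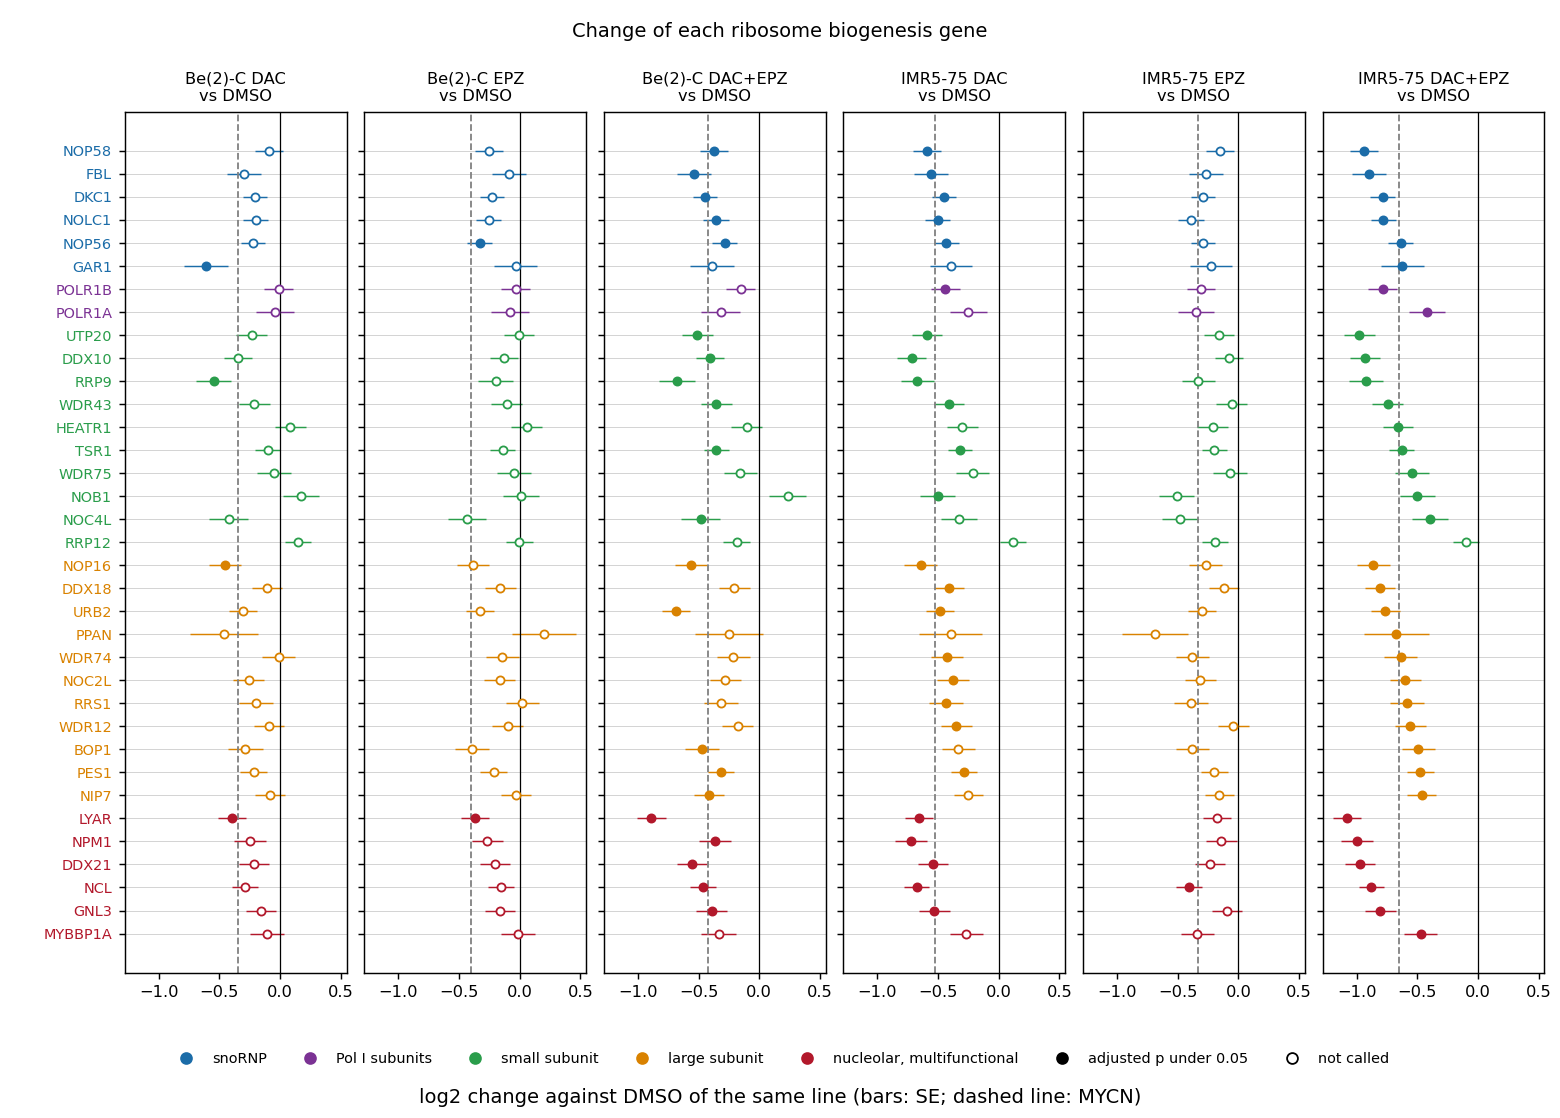
Log2 change against DMSO of the same line (horizontal axes; bars are SE, n = 2 libraries a group) of the 35 genes, coloured by role, in the 6 comparisons. Filled points were called, and the dashed line marks the change of MYCN. In IMR5-75 after both drugs 34 of 35 points are filled, and 19 lie left of the MYCN line.

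Of the 6 snoRNP protein genes, 6 fell under the combination in IMR5-75 and 5 in Be(2)-C, where GAR1 was not called and DKC1 was the 1 gene of the group that kept its call without any one library. The background was 20.4% of all tested genes called lower in IMR5-75 and 10.4% in Be(2)-C. FBL, fibrillarin, which methylates the sugar of ribosomal RNA in box C/D snoRNPs, had 108 and 121 CPM after both drugs in IMR5-75, against 203 and 224 CPM in DMSO (log2 change -0.90 ± 0.14, edgeR adjusted p = 2.75e-05). FBL in Be(2)-C had 156 and 151 CPM after both drugs, against 233 and 213 CPM in DMSO (-0.54 ± 0.14, edgeR adjusted p = 0.00816). The groups did not overlap in either line. NOP58, a C/D core protein, had 162 and 153 CPM after both drugs in IMR5-75, against 319 and 284 CPM in DMSO (-0.94 ± 0.12, edgeR adjusted p = 1.35e-06). Its partner NOP56 had 243 and 261 CPM after both drugs there, against 382 and 403 CPM in DMSO (-0.64 ± 0.10, edgeR adjusted p = 3.01e-05). DKC1, dyskerin, the pseudouridine synthase of H/ACA snoRNPs and of telomerase, had 142 and 135 CPM after both drugs in IMR5-75, against 244 and 233 CPM in DMSO, and 197 and 196 CPM after both drugs in Be(2)-C, against 276 and 259 CPM in DMSO. It fell on the log2 scale by 0.79 ± 0.10 in IMR5-75 (edgeR adjusted p = 2.06e-06) and by 0.45 ± 0.10 in Be(2)-C (edgeR adjusted p = 0.00256). NOLC1, a chaperone of snoRNPs, fell by 0.78 ± 0.10 in IMR5-75 and by 0.36 ± 0.10 in Be(2)-C. GAR1, an H/ACA core protein, had the fewest reads of the group, 13.6 and 10.9 CPM after both drugs in IMR5-75 against 21.7 and 15.8 CPM in DMSO, and its call there was lost without DMSO 1 or DAC+EPZ 2 (edgeR adjusted p up to 0.24). FBL lost its Be(2)-C call without DMSO 1 or DAC+EPZ 2 (edgeR adjusted p up to 0.0759), NOP58 without DMSO 1, DMSO 2 or DAC+EPZ 2 (up to 0.229) and NOP56 in 6 of 16 fits with a library left out (up to 0.223). NOLC1 lost it without any one of the 4 DMSO and DAC+EPZ libraries (up to 0.0993).

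RNA polymerase I was represented by its 2 largest subunits, which both fell in IMR5-75 under both drugs (background 20.4%) and were not called in Be(2)-C (background 10.4%). POLR1B had 84.1 and 77.3 CPM after both drugs in IMR5-75, against 140 and 138 CPM in DMSO (log2 change -0.78 ± 0.12, edgeR adjusted p = 1.45e-05). POLR1B in Be(2)-C had 72.1 and 77.4 CPM after both drugs, against 84.4 and 81.8 CPM in DMSO, a difference that was not called (-0.15 ± 0.12). POLR1A had 101 and 78.3 CPM after both drugs in IMR5-75, against 124 and 116 CPM in DMSO (-0.42 ± 0.15, edgeR adjusted p = 0.0261). That call was lost without IMR5-75 DMSO 1, DAC+EPZ 2, EPZ 1 or EPZ 2 (edgeR adjusted p up to 0.388) and with scaling by totals alone. POLR1A in Be(2)-C had 43 and 57.2 CPM after both drugs, against 60.1 and 64.6 CPM in DMSO, and was not called.

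Small subunit factors fell in 9 of 10 cases in IMR5-75 (background 20.4%) and 6 of 10 in Be(2)-C (background 10.4%) under both drugs. UTP20, a very large scaffold protein of the small subunit precursor, had 160 and 141 CPM after both drugs in IMR5-75, against 310 and 282 CPM in DMSO (log2 change -0.98 ± 0.12, edgeR adjusted p = 2.07e-06). Its Be(2)-C libraries had 122 and 129 CPM after both drugs, against 169 and 188 CPM in DMSO (-0.51 ± 0.13, edgeR adjusted p = 0.00542), a call lost without DMSO 2 or DAC+EPZ 1 (up to 0.0774). The treated and DMSO libraries did not overlap in either line. RRP9, a protein of the U3 snoRNP that directs early cleavages, was low in both lines, with 58.2 and 77.1 CPM after both drugs in IMR5-75 against 122 and 135 CPM in DMSO, and 43.8 and 42.9 CPM in Be(2)-C against 74.3 and 64.3 CPM in DMSO. Its log2 changes were -0.92 ± 0.14 (edgeR adjusted p = 1.76e-05) in IMR5-75 and -0.68 ± 0.15 (edgeR adjusted p = 0.0019) in Be(2)-C. DDX10, an RNA helicase, had 34.1 and 35.2 CPM after both drugs in IMR5-75, against 68.2 and 64 CPM in DMSO (-0.93 ± 0.12, edgeR adjusted p = 2.16e-06).

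The remaining small subunit factors were spread more widely. WDR43, a small subunit processome protein, fell by 0.74 ± 0.13 in IMR5-75 and by 0.36 ± 0.13 in Be(2)-C on the log2 scale. HEATR1, another processome protein, fell by 0.66 ± 0.13 in IMR5-75. HEATR1 in Be(2)-C had 162 and 149 CPM after both drugs, against 157 and 177 CPM in DMSO, and the groups overlapped. WDR75, a processome protein too, fell by 0.54 ± 0.14 in IMR5-75, a call lost without DMSO 1 (edgeR adjusted p = 0.0571), and was not called in Be(2)-C. TSR1, a late factor that keeps the immature subunit inactive, fell by 0.63 ± 0.10 in IMR5-75 and by 0.35 ± 0.11 in Be(2)-C, and NOC4L, which binds the precursor with NOP14 in yeast, by 0.39 ± 0.15 in IMR5-75 and by 0.48 ± 0.16 in Be(2)-C. NOB1, the nuclease that makes the end of the mature 18S RNA, had 57 and 54.5 CPM after both drugs in IMR5-75, against 78.5 and 79 CPM in DMSO (log2 change -0.50 ± 0.15, edgeR adjusted p = 0.00783). It was, in Be(2)-C, the 1 gene of the 35 above 0 under both drugs, with 56.5 and 61.3 CPM against 49 and 51.1 CPM in DMSO (0.23 ± 0.15), and was not called. The exception in IMR5-75 was RRP12, an export and maturation factor, with 106 and 108 CPM after both drugs against 118 and 111 CPM in DMSO (-0.10 ± 0.11, edgeR adjusted p = 0.499). RRP12 was not called in any of the 6 comparisons with DMSO. NOB1 lost its IMR5-75 call without DMSO 1 or DAC+EPZ 2 (edgeR adjusted p up to 0.0795), and WDR43 lost its Be(2)-C call without DMSO 1, DMSO 2, DAC 2 or DAC+EPZ 2 (up to 0.337). TSR1 lost its Be(2)-C call without DMSO 2 or either DAC+EPZ library (up to 0.154), and NOC4L lost both calls without any one of the 4 libraries compared in that line (up to 0.209 in IMR5-75 and 0.137 in Be(2)-C). The NOC4L call in IMR5-75 was also lost without Be(2)-C DAC 1 or either IMR5-75 EPZ library. In GENCODE 29, exons of HEATR1, TSR1, NOB1 and RRP12 share 2095, 1146, 429 and 256 bases with genes on the other strand. So do, with 5 to 378 bases, those of NOC2L, PES1, NIP7, NOP16, WDR74, MYBBP1A, WDR12 and GNL3. On the same strand, RRS1, WDR74, HEATR1, DKC1 and NOP56 share 1 to 194 bases with another gene. Without the annotation and strand setting of the authors' counting, the counts of all these genes are less certain.

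Large subunit factors fell in 11 of 11 cases in IMR5-75 (background 20.4%) and 5 of 11 in Be(2)-C (background 10.4%) under both drugs. URB2, needed in yeast for early steps of the large subunit, had 90.9 and 81.9 CPM after both drugs in IMR5-75, against 144 and 149 CPM in DMSO (log2 change -0.76 ± 0.12, edgeR adjusted p = 1.68e-05). URB2 in Be(2)-C had 83 and 87.6 CPM after both drugs, against 129 and 145 CPM in DMSO (-0.68 ± 0.12, edgeR adjusted p = 0.000197), the second lowest log2 change there. NOP16, a nucleolar protein known to follow MYC levels in breast cancer cells, had 27.9 and 28.6 CPM after both drugs in IMR5-75, against 50.9 and 51.9 CPM in DMSO (-0.86 ± 0.14, edgeR adjusted p = 2.88e-05). NOP16 in Be(2)-C had 56.2 and 59.9 CPM after both drugs, against 93.3 and 78.3 CPM in DMSO (-0.56 ± 0.13, edgeR adjusted p = 0.00372), a call lost without DMSO 1 (0.0754). None of these groups overlapped.

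PES1, BOP1 and WDR12 form the PeBoW complex, which matures the large subunit RNA. In IMR5-75 their changes under both drugs were -0.47 ± 0.11, -0.49 ± 0.14 and -0.56 ± 0.13 on the log2 scale, all called. In Be(2)-C they were -0.32 ± 0.11, -0.47 ± 0.14 and -0.18 ± 0.13, and WDR12 was not called. WDR12 had 133 and 118 CPM after both drugs in Be(2)-C, against 136 and 146 CPM in DMSO. BOP1 lost its IMR5-75 call without DMSO 2 or DAC+EPZ 1 (edgeR adjusted p up to 0.16), and BOP1 and PES1 lost their Be(2)-C calls without any one of the 4 libraries compared (up to 0.118 and 0.199). DDX18, a helicase related to yeast Has1, had 204 and 178 CPM after both drugs in IMR5-75, against 342 and 326 CPM in DMSO (-0.81 ± 0.13, edgeR adjusted p = 2.18e-05), while in Be(2)-C it had 145 and 119 CPM after both drugs, against 149 and 155 CPM in DMSO, and was not called. NOC2L, RRS1, which brings the 5S RNA particle into the large subunit, and WDR74 fell in IMR5-75 by 0.60 ± 0.13, 0.59 ± 0.14 and 0.64 ± 0.13 on the log2 scale and were not called in Be(2)-C. NIP7 fell by 0.46 ± 0.12 in IMR5-75, a call lost without DMSO 1 or DAC+EPZ 2 (edgeR adjusted p up to 0.0948), and by 0.41 ± 0.12 in Be(2)-C, a call lost without any one of the 4 libraries compared (up to 0.134). PPAN, related to yeast Ssf1, had the fewest reads of all 35 genes, 3.37 and 3.16 CPM after both drugs in IMR5-75 against 4.42 and 6.05 CPM in DMSO. Its IMR5-75 call was lost in 9 of 16 fits with a library left out, and 1447 exon bases are shared with the readthrough gene PPAN-P2RY11, so its value is uncertain.

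Among the nucleolar proteins with several roles, 6 of 6 fell in IMR5-75 (background 20.4%) and 5 of 6 in Be(2)-C (background 10.4%) under both drugs. LYAR, a zinc finger protein that promotes processing of precursor RNA, had 30.7 and 30.1 CPM after both drugs in IMR5-75, against 65 and 63.6 CPM in DMSO (log2 change -1.08 ± 0.12, edgeR adjusted p = 2.15e-07). LYAR in Be(2)-C had 32.9 and 30.3 CPM after both drugs, against 60 and 57.1 CPM in DMSO (-0.89 ± 0.12, edgeR adjusted p = 1.31e-05). Its log2 change was the lowest of the 35 genes under both drugs in each line, and LYAR was called in 5 of the 6 comparisons with DMSO, more than any other. NPM1, nucleophosmin, a histone and ribosome chaperone, had 1430 and 1420 CPM after both drugs in IMR5-75, against 2900 and 2770 CPM in DMSO (-0.99 ± 0.13, edgeR adjusted p = 3.04e-06). Its Be(2)-C libraries had 3490 and 2720 CPM after both drugs, against 4060 and 3940 CPM in DMSO (-0.36 ± 0.13, edgeR adjusted p = 0.0465), a call lost without DMSO 1, DMSO 2 or DAC+EPZ 2 (up to 0.416). The treated libraries lay below DMSO in both lines, but those of Be(2)-C were far apart from each other. NPM1 has near-identical pseudogene copies that can take its reads.

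NCL, nucleolin, which binds precursor RNA and ribosomal DNA, had 645 and 559 CPM after both drugs in IMR5-75, against 1160 and 1050 CPM in DMSO (log2 change -0.88 ± 0.11, edgeR adjusted p = 1.03e-06). NCL in Be(2)-C had 1030 and 1010 CPM after both drugs, against 1440 and 1370 CPM in DMSO (-0.46 ± 0.11, edgeR adjusted p = 0.00287). DDX21, a helicase that links RNA polymerase I and II transcription, had 303 and 264 CPM after both drugs in IMR5-75, against 582 and 527 CPM in DMSO (-0.97 ± 0.12, edgeR adjusted p = 2.24e-06). Neither gene's groups overlapped. GNL3, nucleostemin, a GTPase of dividing and stem cells, fell by 0.80 ± 0.12 in IMR5-75 and by 0.39 ± 0.13 in Be(2)-C on the log2 scale. MYBBP1A, a repressor of ribosomal DNA transcription that also binds MYB, had 76.9 and 79.4 CPM after both drugs in IMR5-75, against 108 and 109 CPM in DMSO (-0.47 ± 0.14, edgeR adjusted p = 0.00755), and was not called in Be(2)-C. GNL3 lost its Be(2)-C call without DMSO 1, DMSO 2 or DAC+EPZ 2 (edgeR adjusted p up to 0.335), and MYBBP1A its IMR5-75 call without DMSO 1 or DAC+EPZ 1 (up to 0.0768).

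**Figure D3:**
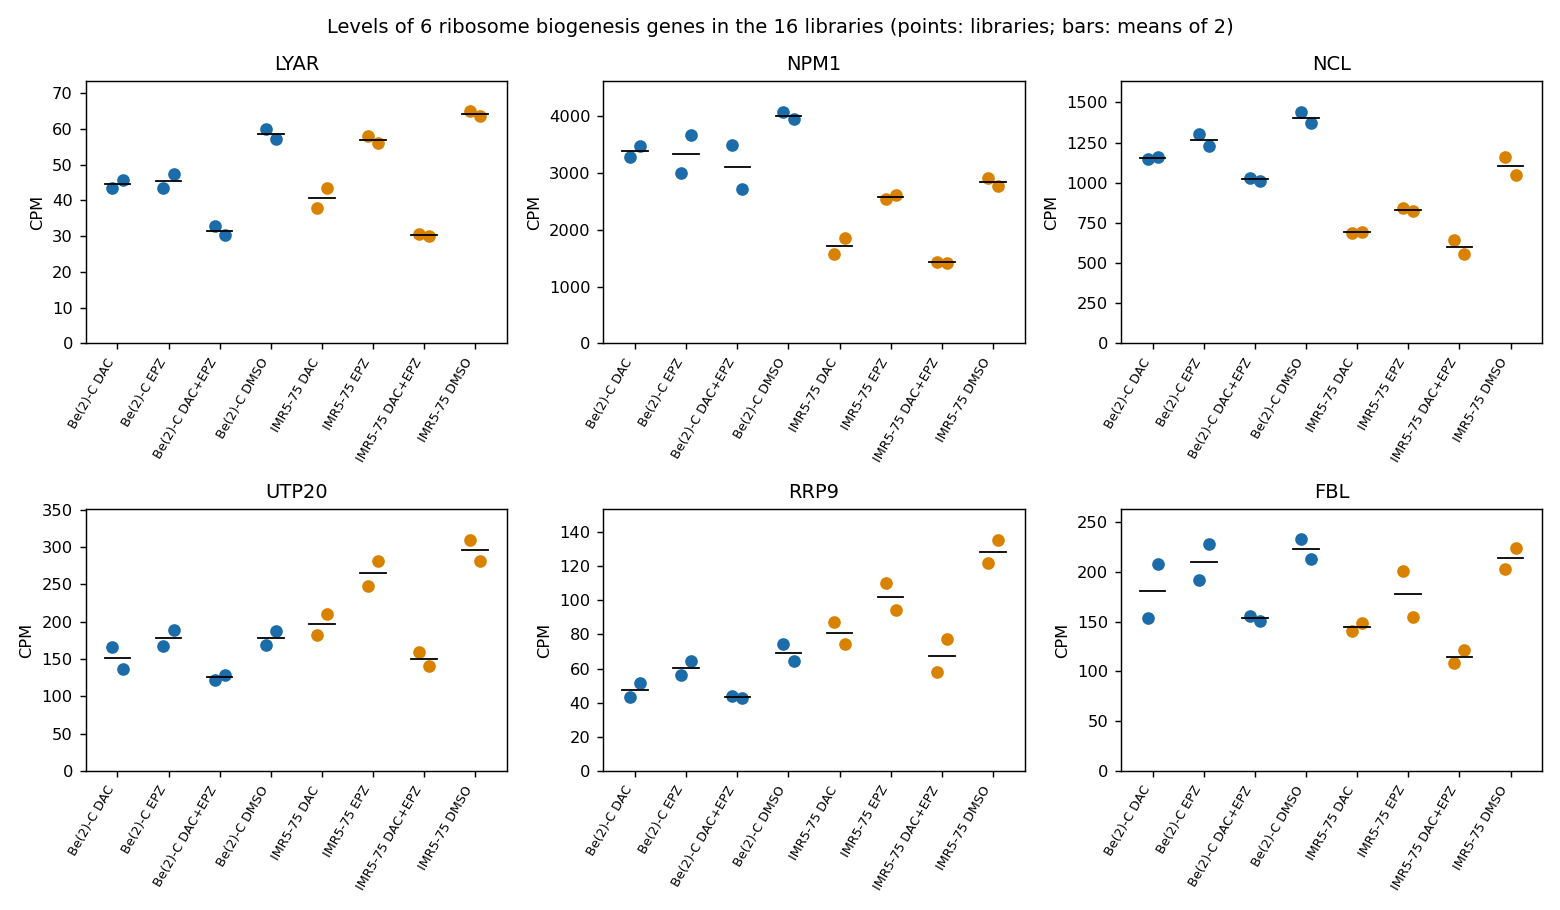
CPM (vertical axes, from 0) of LYAR, NPM1, NCL, UTP20, RRP9 and FBL in each library (points) with the mean of 2 (bars), by line and treatment (blue Be(2)-C, orange IMR5-75). LYAR had 30.7 and 30.1 CPM after both drugs in IMR5-75, against 65 and 63.6 CPM in DMSO, and its EPZ libraries there, at 58.1 and 56 CPM, lie near DMSO.

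Changes of genes with and without CACGTG in the promoter window covered overlapping ranges, which were not tested against each other. In IMR5-75 under both drugs, the 6 genes whose windows hold the motif had log2 changes of -0.98 (UTP20), -0.92 (RRP9), -0.90 (FBL), -0.74 (WDR43), -0.47 (PES1) and -0.47 (MYBBP1A). The 22 genes whose windows lack it ran from -1.08 (LYAR) to -0.39 (NOC4L).

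DAC alone asked what the nucleoside changed without EPZ. In IMR5-75 the lowest changes among the 25 called genes (background 13.8%) were those of NPM1, with 1570 and 1860 CPM against 2900 and 2770 CPM in DMSO (log2 change -0.72 ± 0.13, edgeR adjusted p = 0.000219), and DDX10, with 36.9 and 43.4 CPM against 68.2 and 64 CPM in DMSO (-0.72 ± 0.12, edgeR adjusted p = 8.34e-05). NCL had 689 and 694 CPM after DAC, against 1160 and 1050 CPM in DMSO (-0.68 ± 0.11, edgeR adjusted p = 4.54e-05). RRP9 and LYAR followed, at -0.67 ± 0.14 and -0.66 ± 0.12. All 5 calls held without any one library. Genes not called were GAR1, POLR1A, HEATR1, WDR75, NOC4L, RRP12, BOP1, NIP7, PPAN and MYBBP1A.

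In Be(2)-C, DAC alone gave 4 calls, and none of them held in every fit with a library left out. The background was 2.97% of all tested genes called lower. GAR1 had 11.7 and 11.8 CPM after DAC, against 19.7 and 16.2 CPM in DMSO (log2 change -0.61 ± 0.18, edgeR adjusted p = 0.0488), and RRP9 had 43.6 and 51.4 CPM, against 74.3 and 64.3 CPM in DMSO (-0.55 ± 0.15, edgeR adjusted p = 0.0264). NOP16 had 55.5 and 69.8 CPM after DAC, against 93.3 and 78.3 CPM in DMSO (-0.46 ± 0.13, edgeR adjusted p = 0.0414), and LYAR had 43.4 and 45.6 CPM, against 60 and 57.1 CPM in DMSO (-0.40 ± 0.12, edgeR adjusted p = 0.044). No group overlapped its DMSO libraries for these 4 genes. The count was 0 without Be(2)-C DMSO 1, DMSO 2 or DAC 1 and 2 without Be(2)-C DAC 2, DAC+EPZ 1 or either EPZ library of IMR5-75. Values below DMSO without a call were common: both DAC libraries lay below both DMSO libraries for 28 of 35 genes, against 27.1% of all tested genes.

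EPZ alone asked the same of EZH2 inhibition. In IMR5-75 all 35 changes were below 0 (7492 of all 15967 tested genes were), but NCL was the only call (background 0.344%), with 843 and 823 CPM after EPZ against 1160 and 1050 CPM in DMSO (log2 change -0.41 ± 0.11, edgeR adjusted p = 0.0483). That call was lost in 12 of the 16 fits with a library left out, among them all 6 that left out an IMR5-75 DMSO, DAC or EPZ library (edgeR adjusted p up to 0.271). In Be(2)-C 2 of the 35 genes fell (5.71%), near the background of 4.85% and below the 6.51% of tested genes at or above the level of PPAN. LYAR in Be(2)-C had 43.4 and 47.3 CPM after EPZ, against 60 and 57.1 CPM in DMSO (-0.37 ± 0.12, edgeR adjusted p = 0.0468), and NOP56 had 194 and 182 CPM, against 243 and 229 CPM in DMSO (-0.33 ± 0.10, edgeR adjusted p = 0.0439). The count of 2 became 0 without Be(2)-C DMSO 1, DMSO 2, DAC+EPZ 2 or EPZ 1, became 1 without Be(2)-C DAC 2, DAC+EPZ 1 or EPZ 2, and became 6 without either DAC library of IMR5-75. The 2 Be(2)-C EPZ libraries differed from each other for several genes: NPM1 had 2990 and 3660 CPM in them, and MYCN 4700 and 3210 CPM.

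Adding DAC to EPZ lowered the genes further in IMR5-75. There 22 of 35 genes were lower after both drugs than after EPZ (background 16.9%; median log2 change -0.46), led by LYAR, with 30.7 and 30.1 CPM after both drugs against 58.1 and 56 CPM after EPZ (-0.91 ± 0.12, edgeR adjusted p = 3.83e-06). NPM1 and DDX10 followed, each at -0.85, and these 3 calls held without any one library. In Be(2)-C 2 genes were called (background 1.37%), LYAR at -0.52 ± 0.12 and UTP20 at -0.51 ± 0.13. The Be(2)-C count was 0 without either DAC+EPZ library or EPZ 2, and 4 without EPZ 1.

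The combination was also set against DAC alone. In IMR5-75 no gene was called by edgeR after both drugs against DAC (background 1.94% in either direction), nor by DESeq2, although 34 of 35 changes were below 0, 15 of them at an unadjusted p under 0.05 (median log2 change -0.25). Of all 15967 tested genes, 8081 were below 0 in that comparison, 1126 of them at an unadjusted p under 0.05. Without either EPZ library of Be(2)-C, which changes the shared estimate of the spread, 1 gene was called there. LYAR alone was called in Be(2)-C (background 2.02%), with 32.9 and 30.3 CPM after both drugs against 43.4 and 45.6 CPM after DAC (-0.49 ± 0.12, edgeR adjusted p = 0.0173). That call was lost without either DAC or either DAC+EPZ library of Be(2)-C, and the count was 2 without either EPZ library. The combined change was also set against the sum of the single changes. No gene departed from that sum by edgeR or DESeq2 in either line (background 0.0251% in IMR5-75 and 0.257% in Be(2)-C), and the smallest edgeR adjusted p was 0.66 in Be(2)-C and 0.659 in IMR5-75. At an unadjusted p under 0.05, 1 gene in each line did. Of all 15967 tested genes, 686 were lower and 421 higher at that level in IMR5-75, and 654 lower and 549 higher in Be(2)-C. The departures ran from -0.28 to 0.51 in IMR5-75 and from -0.33 to 0.37 in Be(2)-C on the log2 scale with a median SE of 0.18, so departures of this size were not called with 2 libraries a group.

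Whether the lines changed unequally was tested gene by gene. Under both drugs the change in IMR5-75 was lower than that in Be(2)-C for 6 genes (background 4.35%): NOB1 by 0.73 ± 0.21, POLR1B by 0.63 ± 0.17, NPM1 by 0.63 ± 0.18, DDX18 by 0.60 ± 0.18, NOP58 by 0.56 ± 0.16 and DDX10 by 0.52 ± 0.17 on the log2 scale. The edgeR adjusted p-values lay between 0.0167 for POLR1B and 0.0465 for DDX10. The median difference over the 35 genes was -0.36, and 33 were below 0. The count of 6 fell to 0 without Be(2)-C DMSO 1 or DMSO 2 or IMR5-75 DMSO 1 or DAC+EPZ 2, to 1 without Be(2)-C DAC 1 or either IMR5-75 EPZ library, and to 2 without Be(2)-C DAC+EPZ 1 or IMR5-75 DMSO 2 or DAC+EPZ 1, and was 0 with scaling by totals alone. Under DAC alone, 9 of the 35 changes were lower in IMR5-75 at an unadjusted p under 0.05 (1118 of all 15967 tested genes were), and 3 were under EPZ alone. The matching share for EPZ is not given here. By edgeR and by DESeq2, no difference was called for DAC alone (background 6.19% called in either direction) or EPZ alone (background 1.19%). Without a library, the count was 1 for DAC without IMR5-75 DAC 1 or either Be(2)-C EPZ library, 2 without IMR5-75 DAC 2, and 1 for EPZ without Be(2)-C EPZ 2. The median DAC difference over the 35 genes was -0.24, and 32 were below 0 (8212 of all 15967 tested genes were). With 2 libraries a group, the tests of single genes do not decide whether the larger count of calls under DAC in IMR5-75 is a difference between the lines.

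Without drugs the lines differed gene by gene and not in one direction. Of the 35 genes, 17 were higher and 6 lower in untreated IMR5-75 than in untreated Be(2)-C, where 32% and 31.2% of all tested genes were called, and the median difference was 0.14 on the log2 scale. DDX18 had 342 and 326 CPM in IMR5-75, against 149 and 155 CPM in Be(2)-C (log2 difference 1.14 ± 0.13, edgeR adjusted p = 8.25e-08). HEATR1 had 344 and 317 CPM in IMR5-75, against 157 and 177 CPM in Be(2)-C (0.98 ± 0.13, edgeR adjusted p = 7.82e-07), and MYBBP1A had 108 and 109 CPM, against 52 and 57.9 CPM (0.98 ± 0.14, edgeR adjusted p = 2.77e-06). For these 3 genes both IMR5-75 libraries were far above both Be(2)-C libraries, and both RNA polymerase I subunits were higher there too, POLR1A by 0.95 ± 0.15 and POLR1B by 0.74 ± 0.12. At the other end, DDX10 had 68.2 and 64 CPM in IMR5-75, against 120 and 117 CPM in Be(2)-C (-0.84 ± 0.12, edgeR adjusted p = 1.73e-06). NOP16 had 50.9 and 51.9 CPM in IMR5-75, against 93.3 and 78.3 CPM in Be(2)-C (-0.74 ± 0.13, edgeR adjusted p = 4.87e-05), and NPM1 had 2900 and 2770 CPM, against 4060 and 3940 CPM (-0.50 ± 0.13, edgeR adjusted p = 0.00216). These 6 genes held their call without any one library.

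**Figure D4:**
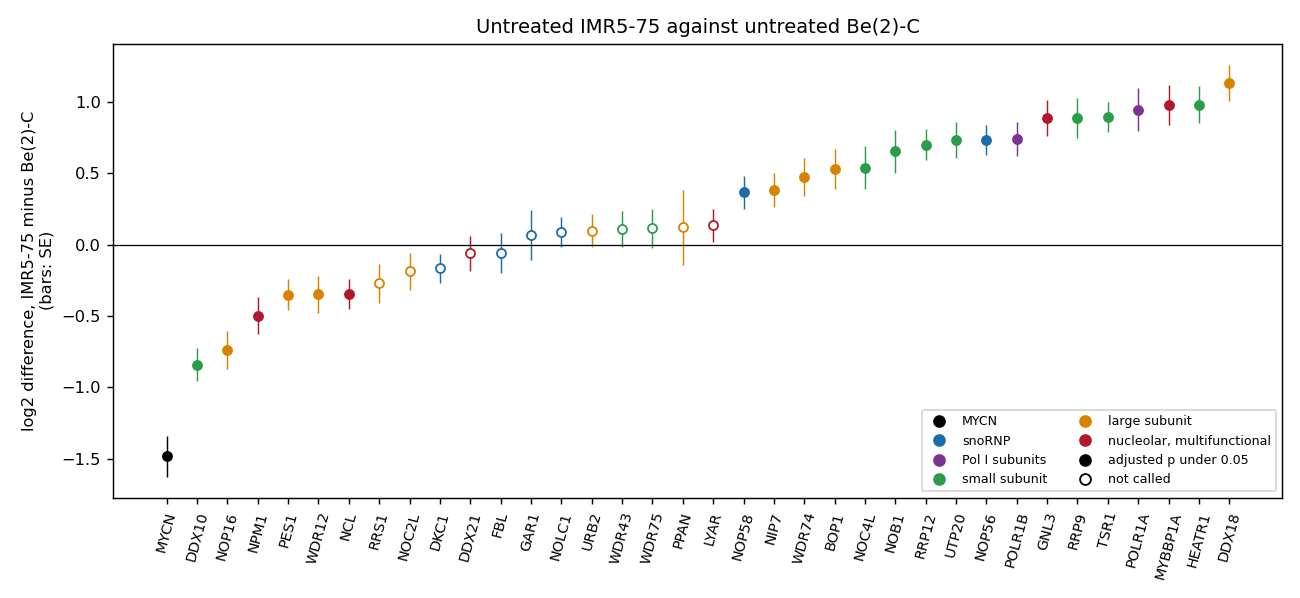
Log2 difference, untreated IMR5-75 minus untreated Be(2)-C (vertical axis; bars are SE, n = 2 libraries a line), for the 35 genes and MYCN, ordered by value. MYCN lies at -1.49, below every one of the 35 genes, which run from -0.84 (DDX10) to 1.14 (DDX18).

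Per length, NPM1 was by far the most abundant of the 35 genes. Scaled by merged exon length from GENCODE 29, which is on another build than the authors' hg19, NPM1 stood at 1090 ± 35 CPM per kb in untreated IMR5-75 and 1530 ± 32 CPM per kb in untreated Be(2)-C (SD, n = 2 each). NCL followed with 274 ± 18 and 349 ± 12 CPM per kb, and FBL, GNL3 and NOP56 with 184, 181 and 163 CPM per kb in IMR5-75. The lowest were PPAN, with 3.01 ± 0.66 CPM per kb in IMR5-75 and 2.75 ± 0.23 in Be(2)-C, then DDX10 in IMR5-75 (8.82 ± 0.40) and POLR1A in Be(2)-C (4.89 ± 0.25). MYCN itself stood at 719 ± 70 CPM per kb in IMR5-75 and 2010 ± 23 CPM per kb in Be(2)-C, between NPM1 and NCL in IMR5-75 and above NPM1 in Be(2)-C.

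The level of MYCN lay below DMSO under every treatment, by modest amounts that were called in 3 of 6 comparisons. In IMR5-75 it had 1420 and 1190 CPM after DAC, 1550 and 1420 CPM after EPZ and 1190 and 1190 CPM after both drugs, against 1740 and 2000 CPM in DMSO. Be(2)-C cells had 4130 and 4090 CPM after DAC, 4700 and 3210 CPM after EPZ and 3820 and 4000 CPM after both, against 5280 and 5190 CPM in DMSO. No treated library overlapped its DMSO libraries. The change was called after both drugs in IMR5-75 (log2 change -0.65 ± 0.14, edgeR adjusted p = 0.000798) and in Be(2)-C (-0.42 ± 0.14, edgeR adjusted p = 0.0362), and after DAC in IMR5-75 (-0.52 ± 0.14, edgeR adjusted p = 0.00765). It was not called after DAC in Be(2)-C (-0.35), after EPZ in Be(2)-C (-0.40) or after EPZ in IMR5-75 (-0.33). The Be(2)-C call under both drugs was lost without any one of the 4 libraries compared (edgeR adjusted p up to 0.143) and with scaling by totals alone. The IMR5-75 DAC call was lost without DMSO 2 or DAC 2 (up to 0.107), and the call under both drugs in IMR5-75 held without any one library.

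Set beside MYCN, the 35 genes stood on both sides of it. Under both drugs in IMR5-75 their median (-0.67) was near the MYCN change (-0.65), with 19 genes below it and 16 above, and in Be(2)-C 11 genes were below the MYCN change and 24 above. After DAC alone 11 genes were below the MYCN change in IMR5-75 and 6 in Be(2)-C, and after EPZ alone 10 and 1. These comparisons share their DMSO libraries, so the values are given side by side only. No difference in the MYCN change between the lines was called (IMR5-75 minus Be(2)-C under both drugs -0.23 ± 0.20, edgeR adjusted p = 0.533). Between the untreated lines MYCN was lower in IMR5-75 by 1.49 ± 0.14 on the log2 scale (edgeR adjusted p = 1.1e-08), with 719 against 2010 CPM per kb. In that comparison 17 of the 35 genes were higher in IMR5-75 and 6 lower, against 32% and 31.2% of all tested genes.

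MYC, which binds the same E-box, had few counts in every library. It had 3 and 1 counts in the IMR5-75 DMSO libraries, where MYCN had 23651 and 23778. After both drugs in IMR5-75 it had 27 and 31 counts, 15.1 times the DMSO share (95% counting interval 5.60 to 57.3), and after DAC 16 and 8 counts, 6.25 times (2.15 to 24.8). These intervals cover counting error only and leave out the spread between libraries. The log2 change was 3.628 ± 0.605 after both drugs (edgeR adjusted p = 4.91e-05) and 2.425 ± 0.715 after DAC (edgeR adjusted p = 0.0123). The DAC change ran from 1.92 to 3.26 when 1 library was left out. MYCN still gave 601 and 558 counts for each MYC count in the IMR5-75 DAC+EPZ libraries. MYC in Be(2)-C had 58 and 37 counts after EPZ, against 18 and 11 counts in DMSO (log2 change 1.71 ± 0.38, edgeR adjusted p = 0.00521), a call lost without DMSO 2 or EPZ 1 (up to 0.0935). MYCL1 (now MYCL), the other family member on the list, had 28.4 and 40.9 CPM in untreated IMR5-75, against 1.18 and 1.01 CPM in untreated Be(2)-C (log2 difference 4.97 ± 0.26, edgeR adjusted p = 2.69e-13). It rose after EPZ in Be(2)-C, with 3.54 and 2.5 CPM against 1.18 and 1.01 CPM in DMSO (log2 change 1.46 ± 0.35, edgeR adjusted p = 0.0102), and was not called in the other comparisons with DMSO. MAX, the partner of the MYC family, had 41.7 and 40.4 CPM after both drugs in IMR5-75 against 43.1 and 41.1 CPM in DMSO and was not called in any comparison with DMSO. MXD4, a MAX partner that represses E-box genes, had 161 and 192 CPM after both drugs in IMR5-75, against 48.7 and 62.9 CPM in DMSO (1.67 ± 0.15, edgeR adjusted p = 1.72e-08), and 182 and 202 CPM in Be(2)-C, against 113 and 115 CPM in DMSO (0.75 ± 0.15, edgeR adjusted p = 0.000678). MXD1, of the same family, rose in IMR5-75, with 19.7 and 15.4 CPM after both drugs against 9.65 and 7.65 CPM in DMSO (1.01 ± 0.18, edgeR adjusted p = 7.56e-05), and was not called in Be(2)-C. Their relative MXD3 fell in both lines, by 0.85 ± 0.19 in IMR5-75 (edgeR adjusted p = 0.00112) and by 0.85 ± 0.20 in Be(2)-C (edgeR adjusted p = 0.00333).

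Other genes of the pathway were read from lists that do not contain the 35. Of 92 other ribosome biogenesis genes, 70 fell under both drugs in IMR5-75 (background 20.4%) and 34 in Be(2)-C (background 10.4%), and none rose. Of all tested genes, 25.7% rose in IMR5-75 and 13.2% in Be(2)-C. NOL11, a small subunit processome factor, led in IMR5-75 (log2 change -0.93 ± 0.12, edgeR adjusted p = 1.99e-06), and MRTO4, a large subunit factor, in Be(2)-C (-0.89 ± 0.13, edgeR adjusted p = 4.35e-05). DAC alone lowered 45 of the 92 in IMR5-75 and 5 in Be(2)-C (background 13.8% and 2.97%). EPZ alone lowered 0 and 12 (background 0.344% and 4.85%). Of 13 other genes of the RNA polymerase I machinery, 10 fell in IMR5-75 (background 20.4%) and 1 in Be(2)-C under both drugs. In Be(2)-C this was 7.69% of the list, below the background of 10.4%. That 1 gene was CD3EAP, a polymerase I subunit now named POLR1G, with 6.85 and 6.08 CPM after both drugs in Be(2)-C, against 17.2 and 16.5 CPM in DMSO (-1.38 ± 0.17, edgeR adjusted p = 5.55e-06). The median changes of the 92 and the 13 genes under both drugs were -0.51 and -0.58 in IMR5-75 and -0.28 and -0.12 in Be(2)-C.

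Few ribosomal protein genes, whose products the assembly factors build in, were called. Of 76 tested, 2 fell under both drugs in IMR5-75 (RPSA and RPS21) and 1 in Be(2)-C (RPS10), and none rose, with median log2 changes of -0.08 and 0.05. The falls were 2.63% and 1.32% of the list, against 20.4% and 10.4% of all tested genes. Many ribosomal protein genes have near-identical processed copies, so single genes of this list are uncertain. Of 23 other MYC targets, 19 fell in IMR5-75 (background 20.4%) and 18 in Be(2)-C (background 10.4%) under both drugs. LDHA, lactate dehydrogenase A, had 383 and 373 CPM after both drugs in IMR5-75 against 1240 and 1260 CPM in DMSO, and 48 and 46.8 CPM in Be(2)-C against 36.7 and 38.8 CPM in DMSO. It fell by 1.73 ± 0.10 in IMR5-75 (edgeR adjusted p = 4.34e-11) and rose by 0.33 ± 0.11 in Be(2)-C (edgeR adjusted p = 0.035), and the difference between the lines, -2.06 ± 0.15, was called (edgeR adjusted p = 5.59e-09).

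The summed level of proliferation genes lay below DMSO beside that of the 35 genes in all 6 comparisons, and their part in the result was not tested. The 16 genes, such as MKI67, PCNA and BUB1, all fell under both drugs in both lines (background 20.4% in IMR5-75 and 10.4% in Be(2)-C). Their summed level was 46.6% of DMSO after both drugs, 62.9% after DAC and 86.2% after EPZ in IMR5-75, and 52.5%, 75.8% and 59.5% in Be(2)-C. The 35 genes stood at 57.2%, 69.2% and 85.9% in IMR5-75 and at 76.8%, 85.8% and 86.9% in Be(2)-C in the same order. Under EPZ in Be(2)-C 16 of 16 proliferation genes fell (median log2 change -0.78) while 2 of the 35 genes did (median -0.14). The background there was 4.85%. Markers of other cell types moved too: of 5 tested, PTPRC, CD68, EPCAM and CDH5 rose after both drugs in IMR5-75, and EPCAM and KRT18 in Be(2)-C. Of all tested genes, 25.7% rose in IMR5-75 and 13.2% in Be(2)-C. All 9 together averaged 14.3 ± 1.04 CPM after both drugs in IMR5-75, against 5.63 ± 0.36 CPM in DMSO, and 8.04 ± 0.70 CPM in Be(2)-C, against 4.92 ± 1.24 CPM in DMSO (SD, n = 2 each). The highest level in any library was 7.97 CPM for CD68, 3.29 CPM for EPCAM, 2.64 CPM for PTPRC, 1.51 CPM for KRT18 and 1.24 CPM for CDH5, and CDH1, PECAM1 and CD3E reached 0.587, 0.252 and 0.158 CPM. Whether the rises come from other cells or from the same cells was not tested. The noradrenergic markers summed to 75.4% of DMSO after both drugs in IMR5-75 and to 86.7% in Be(2)-C, but single markers moved both ways. In IMR5-75, 2 of the 8 fell and 1 rose, with log2 changes from -2.45 to 3.2 (background 20.4% lower and 25.7% higher). In Be(2)-C, 2 fell and 0 rose, with log2 changes from -0.57 to 0.5 (background 10.4% and 13.2%).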

How the data were processed

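Total RNA was depleted of ribosomal RNA, made into directional libraries and sequenced as single reads of 50 bases, per the labels' protocols. The deposited values are raw counts per gene symbol, made by the authors with TopHat2 2.0.5 and HTSeq 0.5.3p9 on hg19, and DESeq2 is also named, per the submitters' processing notes. For the annotation and the strand setting, the entry is: not given in the sources used here.

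All 16 libraries (9539557 to 14032155 counts) were fitted together as 8 groups with edgeR 4.0.16 in R 4.3.3 (filterByExpr, TMM factors, quasi-likelihood test), which kept 15967 of 23459 genes and left 8 residual degrees of freedom. Comparisons were each treatment against DMSO, the combination against each drug, the departure from additivity, the difference between lines and the untreated lines. P-values were adjusted over all tested genes with the Benjamini-Hochberg method. Counting intervals of MYC cover counting error only. Replicates of a group differed by more than sampling noise. The fit was tested on simulated data.

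The 35 genes and the other lists were chosen with earlier results of these data known. Library values were printed for the called genes with the lowest and highest changes in each comparison, the extremes of each role group under both drugs, and MYCN, MYC and MAX; further genes, among them NOC4L, PPAN, WDR12, DDX18, HEATR1, MYCL1 and MXD1, were added after their values were seen. In the other lists, 13 genes were matched by older symbols. The level of 1 cell type marker is not reported here. Promoter windows came from RefSeq GRCh38.p14 and exon lengths and overlaps from GENCODE 29. Alternatives were DESeq2 1.42.0 size factors, library totals alone, no filter, the DESeq2 Wald test, a replicate block, each line alone, and leaving out each library.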

Additional observations from a re-analysis of the deposited data

Results flagged for a closer look

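For 6 of the 35 genes (background 4.35%) the change under both drugs was lower in IMR5-75 than in Be(2)-C by edgeR's test of the difference itself (n = 2 libraries a group). On the log2 scale, IMR5-75 minus Be(2)-C, the differences were -0.73 ± 0.21 for NOB1 (edgeR adjusted p = 0.0258), -0.63 ± 0.17 for POLR1B (0.0167), -0.63 ± 0.18 for NPM1 (0.0307), -0.60 ± 0.18 for DDX18 (0.0319), -0.56 ± 0.16 for NOP58 (0.0295) and -0.52 ± 0.17 for DDX10 (0.0465). For 5 of them both lines lay below DMSO and IMR5-75 lay lower, while NOB1 was above DMSO in Be(2)-C without a call. Of the 16 fits that each left out 1 library, POLR1B kept its call in 11, NOP58 and DDX18 in 7, NOB1 and NPM1 in 6 and DDX10 in 2.

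MYC differed the other way, by 3.25 ± 0.80 (edgeR adjusted p = 0.00951). It had 27 and 31 counts after both drugs in IMR5-75, against 3 and 1 counts in DMSO, and 24 and 12 counts after both drugs in Be(2)-C, against 18 and 11 counts in DMSO. The call was lost without Be(2)-C DMSO 1 or IMR5-75 DMSO 2 (up to 0.0726).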

How the results depend on the processing

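With scaling by library totals alone, the median change of all genes moved to 0.11, 0.11 and 0.13 in Be(2)-C (DAC, EPZ, both) and to 0.16, 0.08 and 0.24 in IMR5-75, and the share of all calls that were lower moved to 22.7%, 28.2% and 30.7% in Be(2)-C (44.3%, 47.5% and 44.1% with TMM) and to 21.4%, 6.5% and 24.4% in IMR5-75 (40.9%, 17.4% and 44.2%). The 35 genes then gave 0, 0 and 11 calls in Be(2)-C, 15 after DAC and 0 after EPZ in IMR5-75, 0 line differences under both drugs, and medians of -0.29 (DAC) and -0.47 (both) in IMR5-75; MAX reversed to 0.013 (Be(2)-C EPZ) and 0.17 (IMR5-75, both). DESeq2 size factors gave 2 (Be(2)-C DAC), 1 (Be(2)-C EPZ) and 0 (IMR5-75 EPZ). Without the filter there were 4 calls for IMR5-75 EPZ, 4 for both drugs against EPZ in Be(2)-C and 1 line difference under DAC. The DESeq2 Wald test gave 2 calls for IMR5-75 EPZ. Each line fitted alone gave 1 (Be(2)-C EPZ) and 0 (IMR5-75 EPZ). Same-numbered replicates were not shown to be paired (correlations of deviations -0.25 to 0.14), and the replicate block gave 2 (Be(2)-C DAC), 0 (Be(2)-C EPZ) and 0 (IMR5-75 EPZ) calls. Leaving out 1 library, where a lone library is assumed to vary like the other groups, gave 0 to 6 (Be(2)-C DAC), 0 to 6 (Be(2)-C EPZ), 8 to 21 (Be(2)-C both), 0 to 4 (Be(2)-C both against EPZ), 0 to 2 (Be(2)-C both against DAC), 0 to 3 (IMR5-75 EPZ) and 0 to 1 (IMR5-75 both against DAC) calls, and 0 to 2, 0 to 1 and 0 to 7 line differences (DAC, EPZ, both). The median ran from -0.753 to -0.631 for both drugs in IMR5-75. MYC in Be(2)-C ran from -0.013 (without DAC 2) to 0.772 after DAC and from -0.079 (without DAC+EPZ 1) to 0.746 after both, and MAX in IMR5-75 from -0.094 to 0.122 after DAC and from -0.086 to 0.049 after both. The cause of these moves was not tested. The other 398 of 480 repeats of counts and medians stayed within their margins, and of 1553 repeats for single genes 1385 kept direction and side of the threshold. The margin of a count was a set ratio to the main count, and that of a median the spread between libraries. A count within its margin could still move. The 34 calls under both drugs in IMR5-75 became 26 to 34 in the alternatives other than leaving out a library. Of the 35 genes, PPAN and GAR1 had the lowest counts, which limits them most.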
